A study of Rattus norvegicus with 6 samples.

Results

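miR-128 is a brain-enriched miRNA with 3 mature products in the rat, which were measured in the peri-infarct cortex, the tissue around the infarct, of rats with stroke. The members were the rows of the count table whose names start with rno-miR-128-, namely rno-miR-128-3p, rno-miR-128-1-5p, and rno-miR-128-2-5p, which are 3 of the 493 mature miRNAs listed. This miRNA was chosen by its abundance, since the 3p arm held the highest counts, and that abundance is given below as a description without a test. The animals were male Sprague-Dawley rats, 3 with MCAO alone and 3 with MCAO + rTMS, and each gave 1 library of small RNA. In all of them the right middle cerebral artery was closed for 90 min and then reopened. The MCAO tissue was taken at day 7, by its labels, and the MCAO + rTMS rats were given repetitive transcranial magnetic stimulation, magnetic pulses from a coil over the head, at 10 Hz for 10 min a day on 7 days in a row. The length of a session is not certain, since the methods of the study describe short trains of pulses with longer rests between them, which with the rests come to more than 10 min. The study also had sham-operated animals, but no sham libraries were analysed here, so the levels have no uninjured baseline. The labels of the stimulated rats do not repeat the day of the tissue, but the heading of the list that compares both groups places it at 7 days after modelling. Since this is bulk tissue, fewer cells of a type cannot be told apart from less of a miRNA per cell.

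A miRNA is cut from a hairpin precursor, in which the strands of the stem give the 5p and the 3p arm. The arm that is kept guides the silencing of mRNAs through its seed, bases 2 to 8, while the other arm, the passenger, is mostly degraded. For miR-128 the kept arm is 3p, which is abundant in neurons and is known for restraining the excitability of neurons. The 3p arm comes from 2 hairpins, so its reads cannot be assigned to either, while each 5p arm belongs to 1 hairpin. The RefSeq table places Mir128-1 within the span of R3hdm1, a gene for a protein with an R3H domain that binds nucleic acid, and Mir128-2 within the span of Arpp21, a gene for a neuronal phosphoprotein. Neither has another miRNA gene within 100 kb. The hairpins are shown to place the arms, which are in capitals and lie in the order 5p, then 3p.

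Mir128-1 hairpin (RefSeq, GRCr8, chr13:42251884-42251965, plus strand): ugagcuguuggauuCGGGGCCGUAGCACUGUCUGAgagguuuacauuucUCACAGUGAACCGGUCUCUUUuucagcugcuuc
Mir128-2 hairpin (RefSeq, GRCr8, chr8:120963795-120963878, minus strand): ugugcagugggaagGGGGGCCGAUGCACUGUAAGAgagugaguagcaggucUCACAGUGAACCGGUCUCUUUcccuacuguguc

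All 3 members had a mature sequence in the RefSeq table, and each is 21 nucleotides long. They are shown with the seed in capitals, together with the miRNAs of the count table that carry the same 7 bases as the seed of miR-128-3p from base 3 on.
miR-128-3p: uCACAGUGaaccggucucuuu
miR-128-1-5p: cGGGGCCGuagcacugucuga
miR-128-2-5p: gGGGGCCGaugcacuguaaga
miR-27a-3p (capitals from base 3): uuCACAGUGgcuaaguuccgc
miR-27b-3p (capitals from base 3): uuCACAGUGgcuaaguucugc

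Both 5p arms have the seed GGGGCCG, while the seed of the 3p arm is CACAGUG. The 5p arms differ at 5 positions, namely C1G, U9A, A10U, C18A, and U19A, with the base of miR-128-1-5p first, then the position from the 5′ end, then the base of miR-128-2-5p. No mature miRNA of similar length in the RefSeq table was closer than 10 mismatches to miR-128-3p when aligned at the 5′ end.

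The authors deposited raw read counts per mature miRNA, with a total between 10492610 and 15411620 per library. The 10 most abundant miRNAs took between 68.3% and 79.1% of the counts of a library, most in MCAO + rTMS replicate 3. Levels are given as CPM, counts relative to the library total after scaling by TMM factors, which trim away extreme miRNAs. The factors did not overlap between the groups, at 1.16 to 1.39 in the MCAO libraries and 0.695 to 0.864 in the MCAO + rTMS libraries. The lowest was that of MCAO + rTMS replicate 3. Of the 493 miRNAs, 452 passed edgeR's filter on low counts, including all 3 members. Of these 452, 55.3% were called different between the groups at an adjusted p under 0.05. Split by direction, 27.2% of the 452 were called higher after stimulation and 28.1% lower.

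miR-128-3p was the most abundant miRNA in each of the 6 libraries. The MCAO libraries held 3591982, 2853729, and 2745853 reads of it, here and below in the order of their replicate numbers, and the MCAO + rTMS libraries 3755128, 3384753, and 4684549. It took 27.4%, 27.2%, and 24.0% of all counts in the MCAO libraries and 24.4%, 24.7%, and 31.7% in the MCAO + rTMS libraries. The groups overlapped, and MCAO + rTMS replicate 3 had the highest share. The mean share was 26.2% ± 1.93 without and 26.9% ± 4.13 with stimulation (SD, n = 3 each). The difference of 0.71 percentage points was smaller than the spread between rats (p = 0.8, two-sided exact permutation test, which cannot go below 0.1 for 3 against 3). It was -0.40 points without MCAO replicate 3 and -1.67 points without MCAO + rTMS replicate 3. The 95% Wilson intervals of the shares in single libraries were narrow, such as 27.37% to 27.42% in MCAO replicate 1, but they cover counting error only. Adapters join to some small RNAs better than to others, so a share of counts is not a share of molecules.

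**Figure D1:**
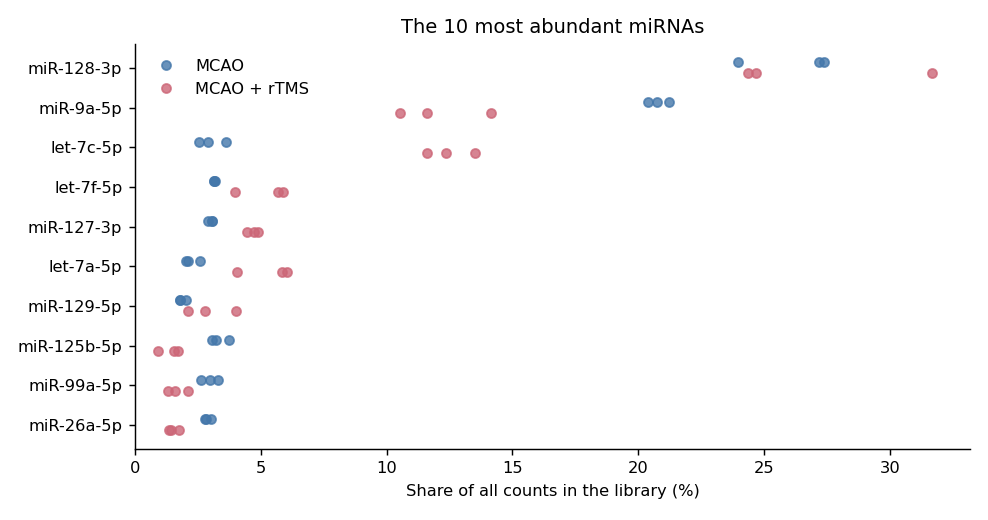
Share of all counts in a library (percent, horizontal axis) for the 10 most abundant miRNAs, with a point for each of the 3 MCAO and 3 MCAO + rTMS libraries. miR-128-3p lies between 24.0% and 31.7% with overlapping groups, while the shares of miR-9a-5p and let-7c-5p do not overlap between the groups.

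The other abundant miRNAs moved more in their share. miR-9a-5p, a miRNA of neural progenitors and neurons that ranked second, changed by -8.67 percentage points, and let-7c-5p, of the let-7 family that promotes differentiation, changed by 9.49 points. How the share of miR-128-3p compared depended on which of these stayed in the total. It was first taken over a total without the let-7 5p arms and the related miR-98-5p. On this basis it lay between 27.9% and 31.3% in the MCAO libraries and between 35.2% and 44.1% in the MCAO + rTMS libraries. The difference was 8.47 points, but let-7c-5p had a higher share after stimulation, so leaving out its family raises the share of miR-128-3p more in that group by construction. Over a total without miR-9a-5p, whose share was lower after stimulation, the difference was -2.50 points and the groups overlapped. Over a total without the other 9 of the 10 most abundant miRNAs the groups overlapped again, with a difference of 4.84 points. These differences follow from what was left out and are given without a test.

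On the TMM scale, miR-128-3p reached 228695, 235447, and 171978 CPM in the MCAO libraries. The MCAO + rTMS libraries had 282452, 285368, and 455295 CPM. The groups did not overlap, with MCAO replicate 3 lowest and MCAO + rTMS replicate 3 far above the rest. The mean rose from 212040 ± 34859 CPM to 341038 ± 98960 CPM (SD, n = 3 each). This was a fold change of 1.61, or 0.69 ± 0.23 (SE) on the log2 scale, with an adjusted p = 0.0358 in the edgeR fit, which uses the quasi-likelihood F test and adjusts by Benjamini-Hochberg over the 452 miRNAs. This call was lost with upper-quartile factors, with library totals only, and with any of the MCAO libraries left out, and the adjusted p ranged from 0.0100 to 0.825 over all alternatives. Without MCAO + rTMS replicate 3 the log2 fold change was 0.45, with an adjusted p = 0.0256 in the edgeR fit.

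miR-128-1-5p, the passenger arm of the hairpin within R3hdm1, had counts of 178, 126, and 162 in the MCAO libraries and 325, 303, and 260 in the MCAO + rTMS libraries. Its level was 11.3, 10.4, and 10.1 CPM in the MCAO libraries and 24.4, 25.5, and 25.3 CPM in the MCAO + rTMS libraries. All stimulated rats lay above all others, with little spread within either group. The mean rose from 10.6 ± 0.626 to 25.1 ± 0.572 CPM (SD, n = 3 each), a fold change of 2.36. On the log2 scale this was 1.24 ± 0.17 (SE), with an adjusted p = 0.00132 in the edgeR fit, and it ranked 64 among the 452.

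miR-128-2-5p, the passenger arm of the hairpin within Arpp21, was the more abundant of the 5p arms in every library. Its counts were 386, 341, and 329 in the MCAO libraries and 1016, 975, and 1299 in the MCAO + rTMS libraries. The level was 24.6, 28.1, and 20.6 CPM in the MCAO libraries and 76.4, 82.2, and 126 CPM in the MCAO + rTMS libraries. Again the groups were apart, and the library highest for miR-128-3p was also the highest here. The mean rose from 24.4 ± 3.77 to 94.96 ± 27.3 CPM (SD, n = 3 each), a fold change of 3.89. On the log2 scale this was 1.96 ± 0.26 (SE), with an adjusted p = 0.00096 in the edgeR fit, and it ranked 25 among the 452.

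**Figure D2:**
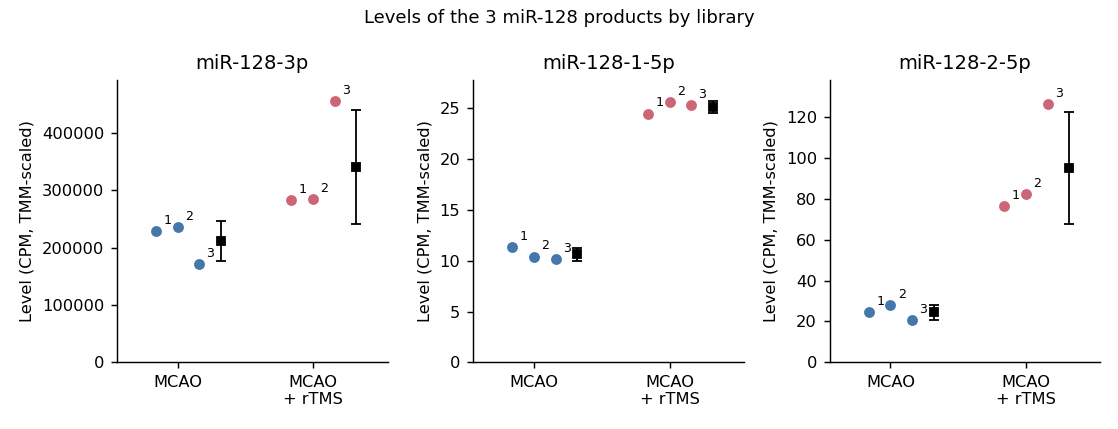
Level of each miR-128 product in CPM of the TMM-scaled total (vertical axes, each from 0) in the 3 MCAO and 3 MCAO + rTMS libraries, with the replicate number beside each point and the mean ± SD in black. With this scaling all 3 products lie higher in every MCAO + rTMS library, and replicate 3 of that group stands highest for miR-128-3p and miR-128-2-5p.

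All 3 members were called higher and all 3 had groups that did not overlap in CPM, where 27.2% of the tested miRNAs were called higher and 30.8% did not overlap with higher values in the MCAO + rTMS group. The 5p arms together rank far below the 3p arm. By mean count over the 6 libraries miR-128-3p ranked 1, miR-128-2-5p 198, and miR-128-1-5p 278 of 493. None of the 3 members was among the 73 miRNAs that the authors deposited as a selection. The paper set its own limits on abundance, fold change, and p for its list. Being left out of it thus does not mean that no change was found.

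The balance of the arms shifted toward 5p in the MCAO + rTMS group. A ratio within a library does not depend on the scaling, so the arms were also compared directly. There were 6369, 6111, and 5592 counts of miR-128-3p for each count of the 5p arms in the MCAO libraries. In the MCAO + rTMS libraries there were 2800, 2648, and 3005. The groups were far apart, and every MCAO + rTMS library had a lower ratio than every MCAO library. The mean ratio was 6024 ± 395 and 2818 ± 179 (SD, n = 3 each). Relative to the 3p arm, the 5p arms were 2.14 times higher in the MCAO + rTMS group.

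This change of the 3p to 5p ratio was -1.10 on the log2 scale (SE 0.17, adjusted p = 0.00043 in an edgeR fit with an arm by group term, adjusted over the 128 hairpins that had both arms counted in every library). Of these 128 hairpins, 52.3% had a changed ratio, and in 27.3% the ratio of 3p to 5p fell. With each library left out in turn, the change of miR-128 stayed between -1.15 and -1.05. The exact permutation test of the log2 ratio gave p = 0.1, the smallest value it allows.

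The 5p arms differed in their part of this shift. miR-128-2-5p made up 0.0107%, 0.0119%, and 0.0120% of the miR-128 counts in the MCAO libraries and 0.0270%, 0.0288%, and 0.0277% in the MCAO + rTMS libraries. These groups did not overlap, and neither did the 95% Wilson intervals of their libraries, the highest MCAO interval ending at 0.0133% and the lowest MCAO + rTMS interval starting at 0.0254%. Such intervals again cover counting error only, not the spread between rats. Set against miR-128-2-5p only, the change of the 3p to 5p ratio was -1.27 on the log2 scale (SE 0.15, adjusted p = 0.00013 in that edgeR fit).

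miR-128-1-5p made up 0.0050%, 0.0044%, and 0.0059% of the miR-128 counts in the MCAO libraries and 0.0087%, 0.0089%, and 0.0055% in the MCAO + rTMS libraries. Here MCAO + rTMS replicate 3 lay within the range of the MCAO group, so the groups overlapped. The change of the 3p ratio with miR-128-1-5p only was -0.58 (SE 0.28, adjusted p = 0.117 in that edgeR fit) and did not pass the threshold.

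The passengers of the hairpins were then set against each other. There were 2.17, 2.71, and 2.03 counts of miR-128-2-5p for each count of miR-128-1-5p in the MCAO libraries and 3.13, 3.22, and 4.996 in the MCAO + rTMS libraries. The groups did not overlap, with MCAO + rTMS replicate 3 again the highest. Of the 5p counts, 69.5% ± 3.14 came from miR-128-2-5p without and 78.5% ± 4.22 with stimulation (SD, n = 3 each). The ratio was 1.62 times higher in the MCAO + rTMS group, or 0.69 on the log2 scale (SE 0.24, adjusted p = 0.0311 in an edgeR fit with a copy by group term, adjusted over 10 pairs of numbered copies). Of these 10 pairs, 60.0% had a changed ratio. Without MCAO + rTMS replicate 3 the value was 0.48 (adjusted p = 0.05002 in that edgeR fit), and without replicate 2 of that group it was 0.79 (adjusted p = 0.0557 in that edgeR fit), so that the call was lost in both cases.

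**Figure D3:**
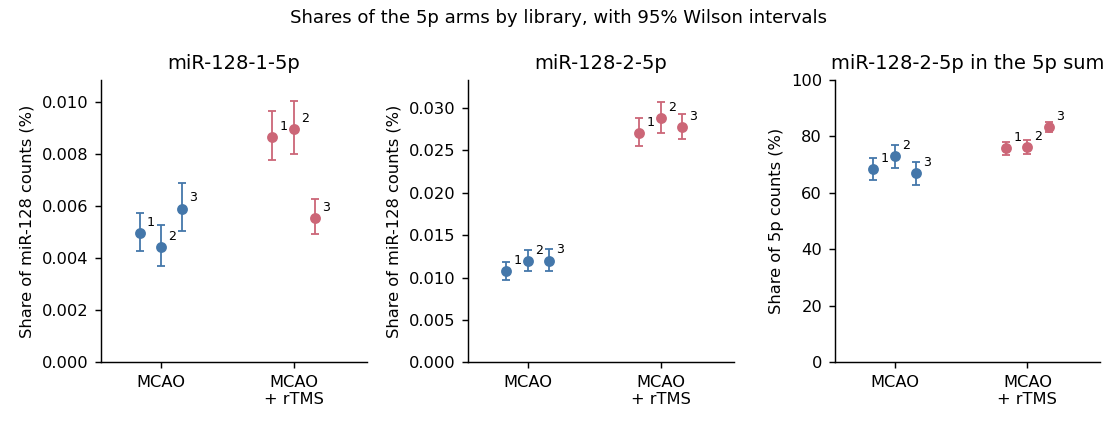
Shares in percent (vertical axes, each from 0) of miR-128-1-5p and miR-128-2-5p in the counts of all 3 miR-128 products, and of miR-128-2-5p in the counts of both 5p arms, by library, with bars for 95% Wilson intervals. miR-128-2-5p lies near 0.012% in the MCAO group and near 0.028% in the MCAO + rTMS group, while miR-128-1-5p overlaps between the groups through MCAO + rTMS replicate 3.

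Among hairpins, miR-128 was one of the most lopsided. Its 5p arms made up 0.0261% of its counts on average over the libraries, the third smallest share of a minor arm among the 128 hairpins. In 27 of the 128, or 21.1%, the minor arm rose relative to the major arm, in 40 it fell, and in 61 the change was not called. The median change of the minor over the major arm was -0.34 on the log2 scale, against 1.10 for miR-128, which ranked 26. In 22 hairpins the minor arm took less than 1% of the counts, a limit chosen after the values were seen. Among these, the minor arm rose in 2, miR-128 included, and fell in 12, with a median change of -1.37. Those that fell include let-7a, let-7b, let-7c, let-7e, let-7f, and let-7i, of the let-7 family, with changes from -3.47 to -1.92. The 5p arm, which is the major one, was called higher for each of these let-7 hairpins, so they are not separate cases. In 6 hairpins, miR-128 among them, the minor arm took less than 0.1%, a limit chosen in the same way. Among these 6 it rose in 1, miR-128, fell in 2, let-7f and let-7i, and was not called in 3, with a median change of -0.44. Of those not called, miR-99a had a change of -1.30, miR-30d of 0.41, and miR-222 of 0.51.

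**Figure D4:**
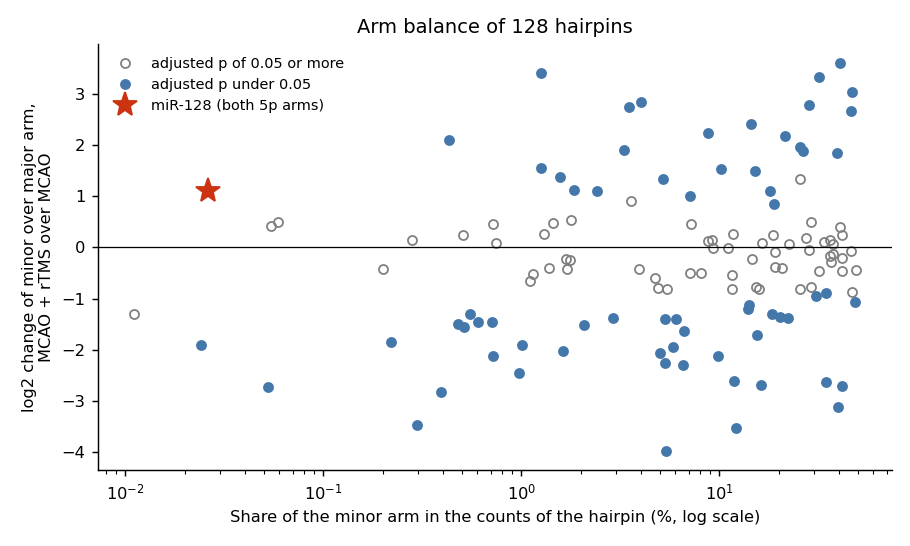
Change of the minor over the major arm between MCAO + rTMS and MCAO on the log2 scale (vertical axis) against the share of the minor arm in the counts of its hairpin (percent, log axis) for 128 hairpins, filled where the adjusted p was under 0.05. miR-128 lies at 0.0261% and 1.10, while the median over all hairpins is -0.34.

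Leaving the most abundant miRNA out of the totals changed the median of all miRNAs little and the number of calls somewhat. With library totals as the only scaling, the median log2 fold change of the 452 miRNAs was -0.80, against -0.21 with TMM factors. Taking miR-128-3p out of the totals moved this median by only -0.011, to -0.81. Taking out miR-9a-5p moved it by -0.15, let-7c-5p by 0.14, and the let-7 5p arms with miR-98-5p by 0.32. The number of calls went from 263 with all miRNAs in the totals to 274 without miR-128-3p, of which 56 were higher and 218 lower. It was 275 without miR-9a-5p and 260 without let-7c-5p. With TMM factors, leaving miR-128-3p out of the scaling left 250 calls, 123 higher and 127 lower, the same numbers as with it. TMM sets aside the most abundant miRNAs when it computes the factors. This outcome was therefore nearly fixed by the method and says nothing about the effect of the 3p share. The split of the calls moved far more between the scalings themselves. Upper-quartile factors gave 85 higher against 172 lower, and plain totals gave 55 against 208. When each library was scaled to its count of miR-128-3p, 228 miRNAs were called, with 42 higher and 186 lower.

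The members followed these shifts. With library totals only, the log2 fold change was 0.039 for miR-128-3p (adjusted p = 0.825), 0.61 for miR-128-1-5p (adjusted p = 0.0368), and 1.31 for miR-128-2-5p (adjusted p = 0.0016) in the edgeR fit. With upper-quartile factors the log2 fold change of miR-128-3p was 0.41 (adjusted p = 0.163 in the edgeR fit). Its level on that scale was 254503, 250866, and 196696 CPM in the MCAO libraries and 251890, 251977, and 426349 CPM in the MCAO + rTMS libraries, so that the groups overlapped. A change of scaling moves all miRNAs by about the same amount, so the difference of a member from the median of all tested miRNAs is nearly fixed whatever the scaling. With TMM factors this log2 difference was 0.89 for miR-128-3p, 1.45 for miR-128-1-5p, and 2.16 for miR-128-2-5p.

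**Figure D5:**
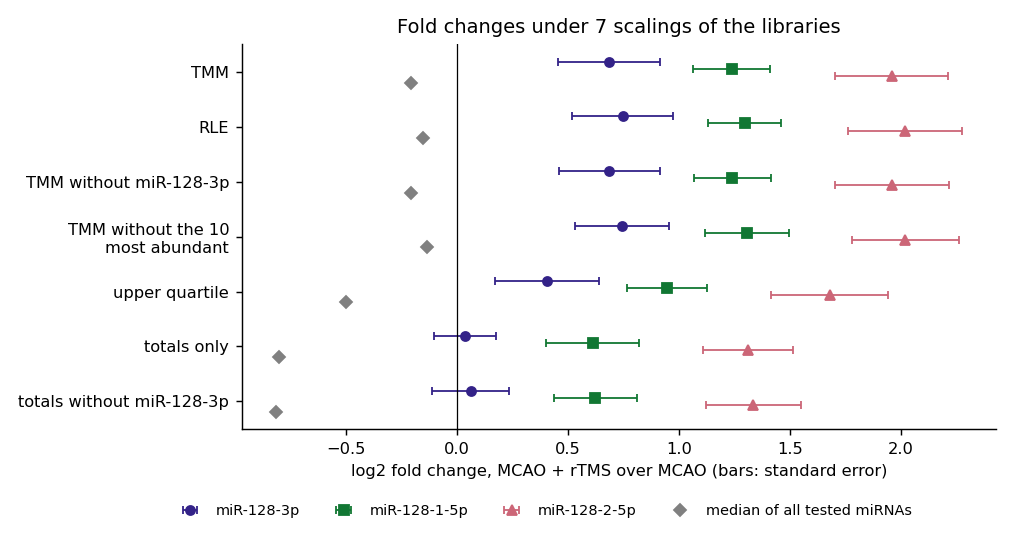
log2 fold change between MCAO + rTMS and MCAO (horizontal axis, bars for the standard error) of the 3 miR-128 products and the median of all 452 tested miRNAs under 7 scalings of the libraries. All points shift to the left together with library totals, where miR-128-3p lies at 0.039, and leaving out miR-128-3p moves the points little.

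miR-27a-3p and miR-27b-3p share 7 bases with the seed of miR-128-3p at another start and are known from blood vessels and fat tissue. miR-27b-3p had 2682 ± 649 CPM without and 3888 ± 1514 CPM with stimulation, with a log2 fold change of 0.54 (adjusted p = 0.193 in the edgeR fit). miR-27a-3p had 395 ± 92.1 and 320 ± 93.3 CPM, with a log2 fold change of -0.31 (adjusted p = 0.387 in the edgeR fit). Errors are SD with n = 3 in each group, and neither miRNA passed the threshold.

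Other miRNAs known from cell types of the brain were listed for comparison. The counts stand against the 27.2% of all tested miRNAs that were called higher and the 28.1% called lower, and the medians against -0.21. Of 13 neuron-enriched miRNAs, 3 rose, 5 fell, and 5 did not pass the test, with a median log2 fold change of -0.50. The list holds both arms of the miR-9a hairpin. Their summed level lay between 193756 and 239382 CPM in the MCAO libraries and between 230365 and 292146 CPM in the MCAO + rTMS libraries. The most abundant, miR-9a-5p, was at 167618 ± 18615 and 150023 ± 15035 CPM (SD, n = 3 each), with a log2 fold change of -0.16 (adjusted p = 0.391 in the edgeR fit). miR-127-3p, from an imprinted gene cluster, rose with a log2 fold change of 1.28 (adjusted p = 0.0012), and miR-138-5p, which acts at dendritic spines, fell with a log2 fold change of -1.65 (adjusted p = 0.00045). Calls of both directions thus occurred among the neuron-enriched miRNAs.

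Of 6 miRNAs of microglia and leukocytes, 5 fell and none rose, with a median log2 fold change of -1.26, against 28.1% called lower and a median of -0.21 over all tested miRNAs. The 5 include both arms of 1 hairpin, miR-142-3p and miR-142-5p. These arms and miR-223-3p, also among the 5, had low mean counts, of 42.2, 79.8, and 106. The summed level of all 6 lay between 1134 and 1252 CPM in the MCAO libraries and between 605 and 814 CPM in the MCAO + rTMS libraries, so that these ranges did not overlap. This sum is mostly miR-146a-5p and miR-150-5p, with means of 618 and 489 CPM in the MCAO group. The most abundant of them, the inflammation-induced miR-146a-5p, had a log2 fold change of -0.58 that was not called (adjusted p = 0.0779 in the edgeR fit), while miR-150-5p of lymphocytes fell with -0.81 (adjusted p = 0.0077 in the edgeR fit). Of 2 endothelial miRNAs, both arms of the miR-126a hairpin, 1 fell, with a median log2 fold change of -1.03 and a summed level of 2993 to 6298 CPM in the MCAO libraries and 2017 to 3293 CPM in the MCAO + rTMS libraries. Of 3 oligodendrocyte miRNAs, 2 were tested, with a median log2 fold change of 0.25. Of these, miR-219a-2-3p rose (log2 fold change 1.22, adjusted p = 0.0134 in the edgeR fit). The other, miR-338-3p, went the other way without a call (log2 fold change -0.73, adjusted p = 0.0596 in the edgeR fit). The summed levels were 571 to 786 and 963 to 2106 CPM. They are mostly miR-219a-2-3p, since miR-338-3p had means of 21.3 CPM without and 12.9 CPM with stimulation. Of the red blood cell miRNAs, 2 were tested. miR-486 rose with a log2 fold change of 1.72 and miR-451-5p fell with -1.61, so their median of 0.057 lies between opposite changes. Their summed levels were 141 to 302 and 513 to 637 CPM, mostly from miR-486, with means of 170 CPM without and 561 CPM with stimulation. miR-451-5p had 31.5 ± 25.7 CPM (SD, n = 3) in the MCAO group, with 60.6 CPM in replicate 2. The part of cell type makeup in the changes of miR-128 was not tested.

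The miRNAs with the most similar profiles were found by the root mean square difference of log2(CPM + 1) values, each centred on its mean over the 6 libraries. For miR-128-3p these were miR-673-3p (0.099), miR-488-3p (0.18), and miR-27a-5p (0.18). For miR-128-1-5p they were miR-106b-3p (0.096), miR-378b (0.11), and miR-30c-1-3p (0.12), and for miR-128-2-5p they were miR-184 (0.086), miR-150-3p (0.12), and miR-30a-3p (0.17). None of the members was among the nearest miRNAs of another member. The distance depends largely on the fold change, which already differed between the members, so this adds no separate result.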

How the data were processed

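Small RNA libraries of 6 rats were made with an adapter ligation kit and sequenced on an Illumina machine. The submitters' processing notes name bcl2fastq, BWA, DESeq2, and the rn6 build, without versions. The rule for counting reads that match several miRNAs is not given in the sources used here. The authors deposited raw counts per mature miRNA, without normalization, in which no count from 1 to 9 occurs and 286 of 2958 counts are 0. A smaller table holds the counts of the authors' selection and was used only to see whether the members are in it.

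Counts were analysed with edgeR 4.0.16 in R 4.3.3, using filterByExpr, TMM factors, the quasi-likelihood test without a block, and Benjamini-Hochberg adjustment at 0.05, two-sided. The standard error is the log2 fold change divided by the square root of F. Arms and copies were compared with a term for each library, the arm or copy, and its product with the group. Both fits were tested on simulated data. Alternatives included DESeq2 1.42.0 and limma 3.58.1, and permutation tests used scipy 1.17.1. A chi-square test of the counts of replicates found no library deposited under a second name, which is all it can show at this depth, and all 6 libraries were kept. The rats are separate samples in the labels, and the p-values measure the spread between these rats only.

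The members, the lists, and the tests were chosen with earlier results of these data known. The named miRNAs are the 3 members, the 10 most abundant, miRNAs sharing the seed of a member or, at another start, its 7 bases, the 3 nearest profiles of each member, and list members with the highest counts. The others named in the lists or among the hairpins were chosen after their values were seen. Sequences come from RefSeq (GRCr8), which held 451 of the 493 miRNAs, and their positions are not in the rn6 build of the notes.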

Additional observations from a re-analysis of the deposited data

How the results depend on the processing

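The log2 fold change of miR-128-3p kept its direction in all 18 alternatives, from 0.039 to 0.83, but its call in 10. It lost the call with upper-quartile factors (0.41), library totals only (0.039), library totals without miR-128-3p (0.062), the equal-variance two-sample test (0.66), and the replicate block (0.66), and it ranged from 0.45 to 0.83 with 1 library left out. miR-128-2-5p kept its call in all 19 alternatives (1.27 to 2.09) and miR-128-1-5p in 18 of 19, the exception being miR-128-3p as the only reference (0.60). The change of the 3p to 5p ratio kept its call in 9 of 10 and lost it with miR-128-1-5p only (-0.58). The ratio of the 5p copies ranged from 0.48 to 0.81 with 1 library left out. The difference in the share of miR-128-3p was 8.47 points without the let-7 5p arms, -2.50 points without miR-9a-5p (chosen after seeing the data), 4.84 points without the other 9 of the 10 most abundant miRNAs, and from -1.67 to 1.98 points with 1 library left out. The number of hairpins with a changed ratio was 42 instead of 67 when both arms needed a count of at least 100, which left 74 hairpins. The median log2 fold change of all miRNAs was -0.50 with upper-quartile factors, -0.80 with totals only, -0.81 with totals without miR-128-3p, -0.95, -0.66, and -0.48 with totals without miR-9a-5p, let-7c-5p, and the let-7 5p arms with miR-98-5p (these last 3 totals were chosen after seeing the data), -0.13 with TMM factors without the 10 most abundant, -0.30 without a filter, and -0.12 where no library had a 0. The number of called miRNAs lay between 179 and 274 in all 19 alternatives, against 250. Apart from the fewer hairpins tested, the causes of these changes were not tested.

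The deviations of equal-numbered libraries correlated at 0.20, -0.12, and -0.11 across miRNAs, and only the libraries numbered 1 correlated best with each other. With 3 such pairs, and each group centred on its own mean, this check cannot exclude a pairing or batch by replicate number. A batch that coincided with the groups could not be told apart from stimulation either. With the replicate block 180 miRNAs were called. The main limits are the 3 rats in each group, the low counts of the 5p arms, from 126 to 1299, and MCAO + rTMS replicate 3, which stood apart for miR-128-3p and miR-128-2-5p.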
